A study of Homo sapiens with 6 samples.

Results

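The proteasome genes of BaF3-T315I cells were compared between 3 control samples and 3 samples exposed to I13, a histone deacetylase inhibitor, at 1.1 µM for 48 h. The members were the protein-coding genes in the deposited table whose names begin with Psma, Psmb, Psmc or Psmd followed by a digit, without Psmb8, Psmb9 and Psmb10, and no measured value was used to choose them. There were 37 such genes among the 22413 listed. Both groups carried the T315I-mutated BCR-ABL of the line, a murine cell line stably transfected with that oncogene, so the control differed from the I13 group in the compound alone as far as the labels state. The labels give the organism as human, whereas the gene identifiers are mouse, and the genes were used as mouse genes. The time and vehicle of the control are not given in the labels, and nothing in them says that same-numbered samples or replicates came from separate cultures, so the errors and p-values describe only the spread between these samples, which may be technical.

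The proteasome is the barrel-shaped protease that degrades proteins marked with ubiquitin. Its 20S core particle is a stack of outer rings of alpha subunits and inner rings of beta subunits, and the beta rings hold the active sites. A 19S regulatory particle sits on the ends of the core, where a ring of ATPases unfolds the substrate and non-ATPase subunits bind and remove ubiquitin. Leukemic cells depend strongly on this machinery, and its subunits are made in balanced amounts because they assemble into one complex. The transcription factor Nfe2l1 raises the genes of all these subunits together when proteasome activity falls short.

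Expression was given as FPKM, the fragments counted for a gene after division by gene length and by sequencing depth. FPKM is relative to the whole library, and less RNA per cell and fewer cells of one kind cannot be told apart in such bulk values. The library totals recovered from the values lay between 16762119 and 17722950 fragments. Of the 37 members, 36 averaged 0.5 FPKM or more across all 6 samples and were tested, and each of these rested on 310 to 8055 fragments in a sample. The remaining member, Psmb11, the beta subunit of the thymus proteasome, had 0 to 4 fragments in a sample. Psmc3ip matched the naming rule although it is a recombination factor and no subunit. It was kept out of the parts of the complex but is counted among the 36 tested members. All 5 haematopoietic and IL-3 receptor markers found were present, and they summed to 457 to 903 FPKM in the control and 931 to 1676 FPKM after I13, mostly from Csf2rb and Csf2rb2, which encode beta chains of the IL-3 receptor family. The 6 B lineage genes found summed to 17.7 to 32.9 and 27.2 to 34.3 FPKM. Over all samples Cd79a was present at 14.1 to 27.5 FPKM and Cd79b at 3.57 to 6.94 FPKM, while Pax5, Ebf1, Vpreb1 and Igll1 were at or near 0. The 3 T cell genes and the 1 fibroblast gene listed were below 1 FPKM, and the macrophage marker Adgre1 lay at 18.1 to 40.1 FPKM in the control and 44.1 to 76.7 FPKM after I13. The 3 macrophage genes summed to 21.2 to 44.9 and 48.9 to 85.1 FPKM, with Csf1r near 0. The part of these marker differences in the values of the proteasome genes was not tested.

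Differences in proteasome mRNA after I13 were small, and whether they differed between the parts of the complex was not tested. No member passed the thresholds for a called gene, a limma adjusted p under 0.05 together with a log2 fold change of 0.58 or more in size, which 0.0411% of the 12163 genes tested did. All 7 tested beta ring genes had a log2 fold change below 0, with a median of -0.23, and so did 7 of the 8 alpha ring genes, with a median of -0.10. Among the 6 ATPase genes 5 were below 0 (median -0.20), whereas the 11 non-ATPase genes were split into 5 below and 6 above 0 (median 0.01). Over the 36 tested members the median was -0.12 and 27 (75.0%) were below 0, against a median of -0.005 and 50.8% over all genes tested. The members are abundant genes, and among the 2887 tested genes that averaged 20 FPKM or more the median was -0.05 and 58.2% were below 0. At an unadjusted p below 0.05 were 8 members, all of them lower after I13 (Psma5, Psmb1, Psmb5, Psmb6, Psmc3, Psmc4, Psmc5 and Psmd3), or 22.2%, against 10.8% of all genes tested and 17.3% of the abundant ones. No member was higher at that level, where 7.79% of all genes tested and 7.55% of the abundant ones were. The 8 members became 2, 3 and 12 without control replicate 1, 2 or 3, and 6, 2 and 4 without I13 replicate 1, 2 or 3. The lowest adjusted p from limma among the members was 0.109 and the highest 0.992.

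**Figure D1:**
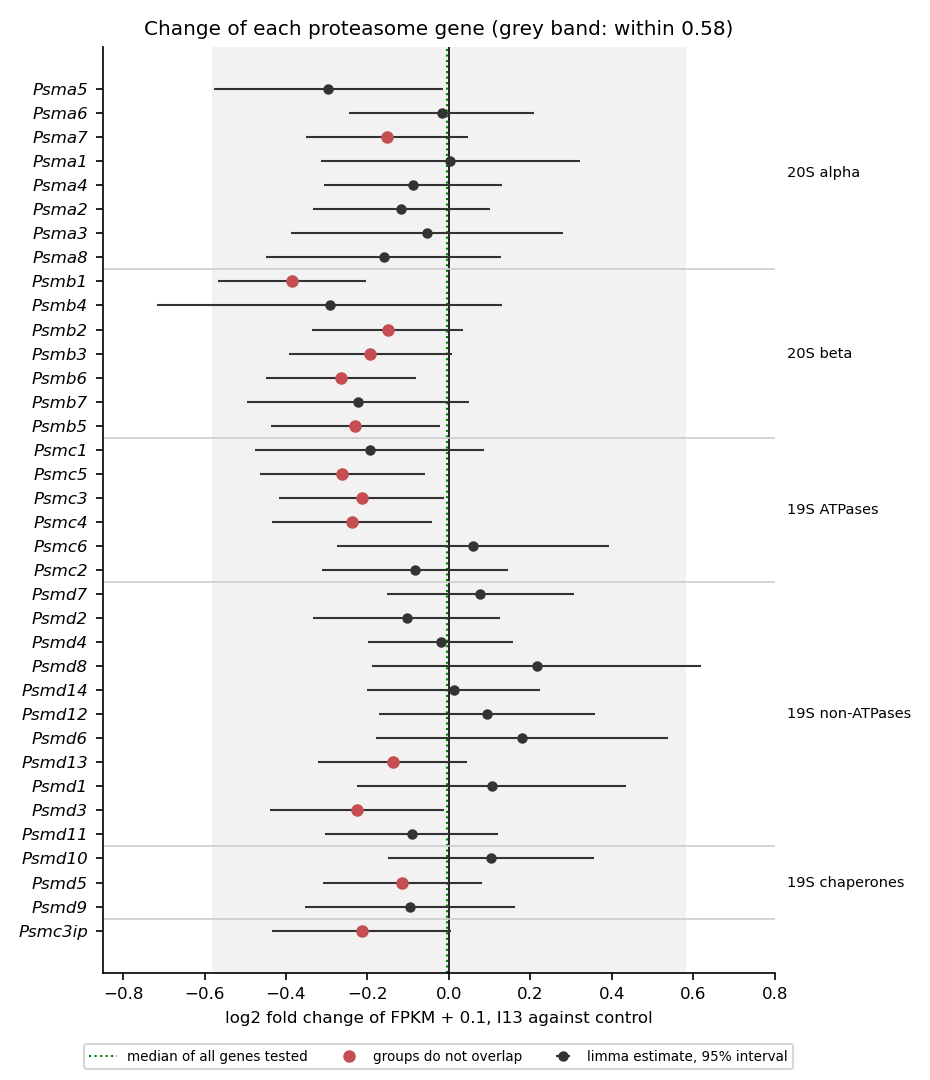
Log2 fold change of FPKM + 0.1, I13 against control, for the 36 tested members, ordered within each part of the complex by mean FPKM; bars are 95% intervals from limma, the grey band marks 0.58 to either side, and red points are genes whose 3 control and 3 I13 values do not overlap. All 7 beta ring genes lie left of 0 and the 11 non-ATPase genes lie on both sides, with only the intervals of Psmb4 and Psmd8 leaving the band.

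The spread between these samples sets how precisely each change was estimated. As that spread may be technical, the intervals do not bound the change that I13 could cause in other cultures. The standard error of the log2 fold change had a median of 0.10 over the members and ran from 0.08 to 0.18. The 95% interval lay wholly inside 0.58 to either side for 34 of the 36 members, and the exceptions were Psmb4 and Psmd8, each with 1 sample far from the others of its group. A log2 fold change on the scale of FPKM + 0.1 hardly differs from that of FPKM at the levels of these genes.

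The beta ring held both the most abundant member and the largest difference. Psmb1, a structural beta subunit, measured 309, 295 and 306 FPKM in the controls, in the order of replicates 1, 2 and 3 used throughout, against 226, 227 and 243 FPKM with I13. The lowest control thus lay well above the highest I13 sample. Its mean was 23.4% lower after I13, a log2 fold change of -0.38 (95% interval -0.57 to -0.20, adjusted p = 0.109 from limma). When the replicate number entered the fit as a block, Psmb1 fell with an adjusted p of 0.045 from limma, though its change stayed under the fold change threshold. An adjusted p below 0.05 was reached in that fit by 2.99% of the genes tested and by 181 of the 2887 abundant ones. Leaving out 1 sample at a time gave log2 fold changes between -0.42 and -0.37. Psmb2, another structural beta subunit, was at 128 ± 4.64 FPKM in controls against 115 ± 4.38 FPKM with I13 (SD, n = 3 each). The ratio of Psmb1 to Psmb2 within a library was 2.27 to 2.49 in the controls and 1.90 to 2.10 after I13. These 2 genes had the largest and the smallest fall of the tested beta genes (log2 fold changes -0.38 and -0.15). The lack of overlap in their ratio thus follows from that choice and is no further support.

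The 3 genes of the constitutive catalytic subunits were all lower in mean. Psmb6, the caspase-like subunit, was at 94.5, 89.1 and 87.8 FPKM in the control and at 76.6, 72.7 and 76.6 FPKM after I13, so the groups did not overlap (log2 fold change -0.26, standard error 0.08, adjusted p = 0.159 from limma). Psmb5, the chymotrypsin-like subunit and the main target of proteasome inhibitor drugs, was at 41.9, 39.0 and 40.1 FPKM and at 34.8, 31.99 and 36.5 FPKM, again without overlap (log2 fold change -0.23, adjusted p = 0.230 from limma). Psmb7, the trypsin-like subunit, was at 49.6, 45.3 and 37.4 FPKM in the control and 37.6, 37.2 and 37.8 FPKM after I13. Here control replicate 3 lay inside the narrow range of the I13 samples, and the log2 fold change was -0.22 (adjusted p = 0.345 from limma). The sum of the 3 genes was 186, 173 and 165 FPKM in the control and 149, 142 and 151 FPKM after I13.

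Psmb4 shows how a single sample can carry a difference. It was listed at 177, 121 and 109 FPKM in the control and at 99.4, 112 and 114 FPKM after I13, so control replicate 1 stood apart and the groups overlapped. Its log2 fold change of -0.29 (adjusted p = 0.418 from limma) was -0.08 without control replicate 1. Psmb3, a structural subunit, was at 96.9 ± 6.27 FPKM in controls against 84.7 ± 2.69 FPKM with I13 (SD, n = 3 each), without overlap (log2 fold change -0.19, adjusted p = 0.281 from limma). Of the 7 tested beta genes, 5 had groups that did not overlap with I13 lower. Over all members the number was 13 of 36 (36.1%), against 15.4% of all genes tested and 23.0% of the abundant ones. No member had non-overlapping groups with I13 higher, which 9.82% of all genes tested and 7.97% of the abundant ones had.

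**Figure D2:**
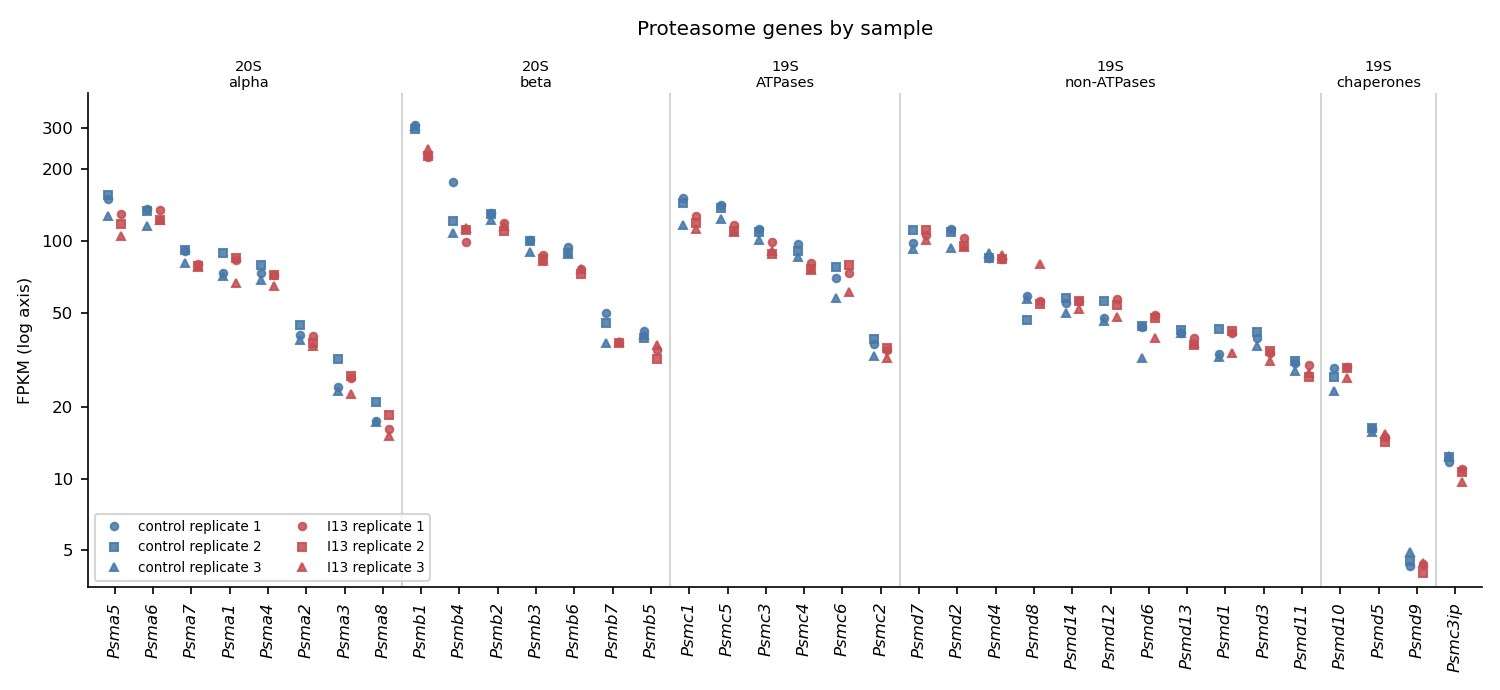
FPKM of the 36 tested members in each sample on a log axis, control in blue and I13 in red with 1 marker shape per replicate number, ordered within each part of the complex by mean FPKM. Psmb1 is the most abundant and its I13 samples at 226 to 243 FPKM lie below its controls at 295 to 309 FPKM, and Psmb4 has a single high control at 177 FPKM.

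In the alpha ring, which gates the entrance to the core, 1 of the 8 genes had groups that did not overlap. Psma5 had its largest difference, with 150, 156 and 128 FPKM in the control and 130, 119 and 105 FPKM after I13. Control replicate 3 lay inside the range of the I13 samples, but I13 was lower within each pair of same-numbered samples (log2 fold change -0.30, standard error 0.12, adjusted p = 0.249 from limma). Psma1 was at 73.4, 89.4 and 71.2 FPKM in the control and at 83.5, 84.9 and 66.4 FPKM after I13, so the groups covered the same range and the log2 fold change was 0.0034 (95% interval -0.31 to 0.32). Psma8, a form of alpha subunit best known from the testis, was at 17.4, 21.1 and 17.3 FPKM in the control and at 16.3, 18.5 and 15.1 FPKM after I13 (log2 fold change -0.16, adjusted p = 0.516 from limma). It was the least abundant alpha gene, resting on 447 to 629 fragments in a sample, and fragments shared with its close relative Psma7 cannot be told apart from its own here. The other alpha genes had log2 fold changes between -0.15 (Psma7) and -0.02 (Psma6), and Psma7 was the 1 alpha gene whose groups did not overlap. The sign for Psma1, Psma3 and Psma6 changed when single samples were left out.

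In the ATPase ring, which unfolds substrates and threads them into the core, most genes leaned the same way as the beta ring. Psmc5 was at 141, 138 and 124 FPKM in the control and 116, 111 and 109 FPKM after I13, without overlap (log2 fold change -0.26, standard error 0.09, adjusted p = 0.186 from limma). Psmc4 was at 96.8, 91.2 and 85.9 FPKM and at 80.5, 76.0 and 75.5 FPKM, also without overlap (log2 fold change -0.24, adjusted p = 0.205 from limma). Psmc3 completed the 3 ATPase genes without overlap, with a log2 fold change of -0.21. Psmc6 was the exception with 70.2, 77.5 and 57.8 FPKM in the control and 73.4, 79.0 and 61.3 FPKM after I13. Its groups overlapped almost completely, and each I13 sample lay slightly above the control of the same number (log2 fold change 0.06, 95% interval -0.28 to 0.39). Without control replicate 3 the value for Psmc6 was -0.06, and without I13 replicate 2 it was -0.02. Psmc1 and Psmc2 had log2 fold changes of -0.19 and -0.08.

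The 11 non-ATPase genes encode the scaffold, the ubiquitin receptors and the deubiquitinating part of the regulatory particle. Psmd14, the deubiquitinase that strips ubiquitin chains from substrates, was at 55.0, 57.4 and 49.7 FPKM in the control and 55.7, 55.8 and 51.7 FPKM after I13, a log2 fold change of 0.01 (95% interval -0.20 to 0.22). Psmd4, a ubiquitin receptor, was at 86.4 ± 2.43 FPKM in controls against 85.2 ± 2.03 FPKM with I13 (SD, n = 3 each), with a log2 fold change of -0.02 (95% interval -0.20 to 0.16). The 3 I13 samples of both genes lay within or next to the range of the controls. Psmd3, a lid subunit, was at 39.2, 41.4 and 36.2 FPKM in the control and 33.7, 34.6 and 31.4 FPKM after I13, without overlap (log2 fold change -0.23, adjusted p = 0.248 from limma). Psmd13, also of the lid, was at 41.0, 42.3 and 41.1 FPKM and at 39.2, 36.6 and 37.2 FPKM, without overlap (log2 fold change -0.14, adjusted p = 0.379 from limma).

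The largest positive values in the complex were also in this set. Psmd8 was at 58.6, 46.7 and 56.9 FPKM in the control and at 55.9, 54.3 and 80.4 FPKM after I13, so I13 replicate 3 alone stood above the controls (log2 fold change 0.22, adjusted p = 0.535 from limma), and without that sample the value was 0.03. Psmd6 was at 43.7, 44.1 and 32.3 FPKM and at 48.8, 47.4 and 39.0 FPKM. The groups overlapped because both samples numbered 3 were low, and I13 was higher within every pair (log2 fold change 0.18, standard error 0.15, adjusted p = 0.561 from limma). Without control replicate 3 the value for Psmd6 was 0.03, and without I13 replicate 3 it was 0.28. The scaffold genes Psmd1 and Psmd2 and the lid genes Psmd7, Psmd11 and Psmd12 had log2 fold changes from -0.10 (Psmd2) to 0.10 (Psmd1), with groups that overlapped.

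Psmd5, Psmd9 and Psmd10 are chaperones that help the ATPase ring to assemble and leave before the complex is complete. Psmd10, also known as gankyrin, was at 29.1, 26.8 and 23.4 FPKM in the control and at 29.4, 29.1 and 26.5 FPKM after I13 (log2 fold change 0.10, adjusted p = 0.641 from limma). Psmd5 was at 16.2, 16.4 and 15.8 FPKM and at 14.9, 14.3 and 15.4 FPKM, which did not overlap (log2 fold change -0.11, adjusted p = 0.490 from limma). Psmd9 was the least abundant tested member, at 4.31, 4.51 and 4.92 FPKM in the control and 4.37, 4.03 and 4.44 FPKM after I13 (log2 fold change -0.10, adjusted p = 0.676 from limma). Of the 3 chaperone genes, 2 were thus below and 1 above 0. Psmc3ip, the recombination factor caught by the naming rule, was at 12.2 ± 0.402 FPKM in controls against 10.5 ± 0.682 FPKM with I13 (SD, n = 3 each, log2 fold change -0.21, adjusted p = 0.276 from limma). It is 1 of the 27 members below 0, of the 13 without overlap and of the 21 lower in every pair.

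The summed FPKM of each part was taken in every sample. The 8 beta genes summed to 905, 819 and 792 FPKM in the controls against 681, 675 and 707 FPKM with I13. All I13 samples were below all controls, with a mean 17.96% lower. The difference did not rest on Psmb4, since without it the sums were 683 to 728 FPKM in the control and 564 to 593 FPKM after I13. Psmb1, the most abundant gene, carried a large part of the fall. Without Psmb1 and Psmb4 the sums were 378 to 419 FPKM in the control and 336 to 356 FPKM after I13, with a mean 13.2% lower. The alpha genes summed to 607, 649 and 543 FPKM and to 584, 560 and 511 FPKM, and the ATPases to 609, 600 and 519 FPKM and to 532, 509 and 481 FPKM, with overlap in both because control replicate 3 was low. The 11 non-ATPase genes summed to 645, 667 and 599 FPKM in the control and to 655, 642 and 632 FPKM after I13, within the same range. As a sum over chosen genes, these values are a description and no p-value is given.

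Dividing the summed level of the core particle by that of the regulatory particle within a library removes what all its genes share. This ratio was 1.21, 1.16 and 1.19 in the control and 1.07, 1.07 and 1.09 after I13, without overlap. The ratio of the beta ring to the non-ATPase subunits was 1.23 to 1.40 in the control and 1.04 to 1.12 after I13. Without the 3 genes that weighed most or had a sample apart, Psmb1, Psmb4 and Psmd8, it was 0.649 to 0.715 in the control and 0.572 to 0.633 after I13, still without overlap. The ratio of the beta ring to the alpha ring overlapped, with 1.26 to 1.49 in the control and 1.17 to 1.38 after I13. The ratios were chosen after the values of the members had been seen.

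**Figure D3:**
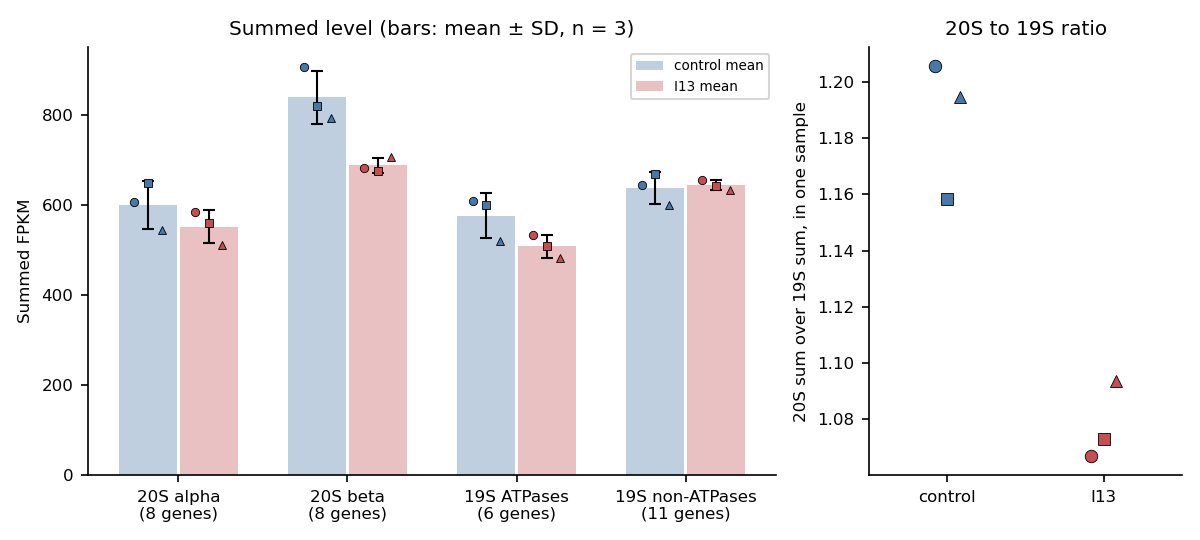
Left, summed FPKM of the 4 parts of the complex, with bars for the mean, error bars for the SD of 3 samples and points for the samples; right, the summed 20S level over the summed 19S level within each sample, on an axis that does not start at 0. The beta sums of 675 to 707 FPKM after I13 lie below the controls at 792 to 905 FPKM, the non-ATPase sums overlap, and the ratio on the right is 1.16 to 1.21 in the control and 1.07 to 1.09 after I13.

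Over all members, 43.7% of the sum of squares lay between replicate numbers and 40.5% between conditions, against 44.2% and 27.7% over all genes tested and 52.2% and 35.9% over the abundant ones. Of the sum of squares of the alpha genes, 59.7% lay between replicate numbers and 27.7% between conditions. For the non-ATPase genes the shares were 59.8% and 24.8%, and for the ATPases 48.8% and 46.8%. For the beta genes they were 14.2% and 60.3%. Condition takes 1 degree of freedom and replicate number 2, so the shares are compared between gene sets and not with each other.

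Within pairs of same-numbered samples, 21 of the 36 members were lower after I13 in every pair (58.3%), against 27.3% of all genes tested and 38.3% of the abundant ones, and 3 were higher in every pair (Psmc6, Psmd6 and Psmd10), against 24.1% of all genes tested and 23.1% of the abundant ones. The median log2 ratio of the beta genes was -0.30, -0.28 and -0.12 in pairs 1, 2 and 3, and that of the non-ATPase genes was -0.02, -0.04 and 0.05. In the blocked fit, 230 genes (1.89% of those tested) were called against 5 without it and 0 in blocked fits that left out pair 2 or pair 3, and none of the members was among them. At an adjusted p below 0.05 alone, Psmb1 was the single member. Unadjusted p-values below 0.05 in that fit were found for 10 members with I13 lower (27.8%), against 14.8% of all genes tested and 24.8% of the abundant ones, and for 1 with I13 higher, Psmd6 (2.78%), against 13.2% and 15.9%. When the blocked fit was run by voom on fragment numbers instead, Psmb1 and Psma5 had adjusted p-values of 0.0144 and 0.0422 from limma, in a fit where 12.4% of the genes were below 0.05 and 4.14% were called, no member among them.

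**Figure D4:**
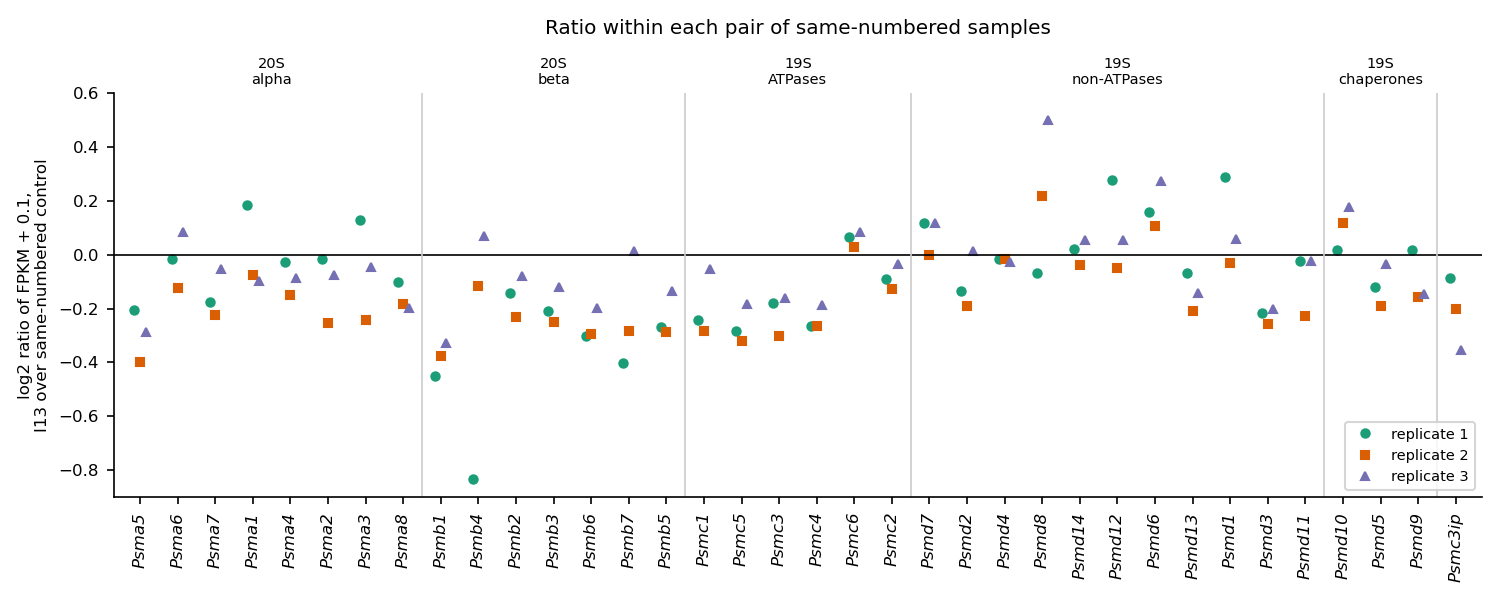
Log2 ratio of FPKM + 0.1 of each I13 sample over the control of the same replicate number, for the 36 tested members, with 1 colour and marker per pair and a line at 0. All 3 pairs lie below 0 for Psmb1 and for 20 other members, all 3 lie above 0 for Psmc6, Psmd6 and Psmd10, and the widest spreads are those of Psmb4 and Psmd8.

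The values also moved a little with gene length, whose part in the result was not tested. The median log2 fold change of all tested genes was -0.04 for genes of up to 1000 bases and 0.04 for those above 6000 bases. The 12 members of 1000 to 2000 bases had a median of -0.20, where all genes of that length had -0.04, and the 10 members of 2000 to 3000 bases had a median of -0.0085, where all genes of that length had -0.03. For the 7 members of 3000 to 4000 bases the median was -0.12, against -0.02 for all genes of that length. The 3 members of 4000 to 6000 bases had -0.10 against -0.001, and the 3 above 6000 bases had -0.09 against 0.04. The 1 member of up to 1000 bases was at -0.23. With each library's trend on length removed, the median of the members was -0.13 and that of all genes -0.03. Rescaling each library to the same FPKM total moved the median of the members to -0.09 and that of all genes to 0.02.

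The immunoproteasome genes encode inducible beta subunits that replace the catalytic ones, and 1 of these 3 genes was below 0 and 2 above. Psmb8, which replaces Psmb5, was at 20.5, 17.99 and 17.2 FPKM in the control and at 16.0, 21.1 and 19.02 FPKM after I13 (log2 fold change 0.0079, adjusted p = 0.982 from limma). Psmb9, which replaces Psmb6, was at 15.5, 17.6 and 19.2 FPKM and at 17.2, 19.1 and 17.6 FPKM (log2 fold change 0.05, adjusted p = 0.847 from limma). Psmb10, which replaces Psmb7, was at 22.1, 24.4 and 24.5 FPKM and at 17.7, 18.7 and 21.7 FPKM, without overlap (log2 fold change -0.29, adjusted p = 0.214 from limma). Each of these genes was below its constitutive counterpart in every library. The ratio of Psmb9 to Psmb6 was 0.164 to 0.219 in the control and 0.225 to 0.263 after I13, without overlap, while the ratios of Psmb8 to Psmb5 and of Psmb10 to Psmb7 overlapped. The groups of Psmb6 alone did not overlap while those of Psmb9 did, so the narrow gap in their ratio is no further support. Whether the inducible and constitutive genes differed in their response was not tested.

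**Figure D5:**
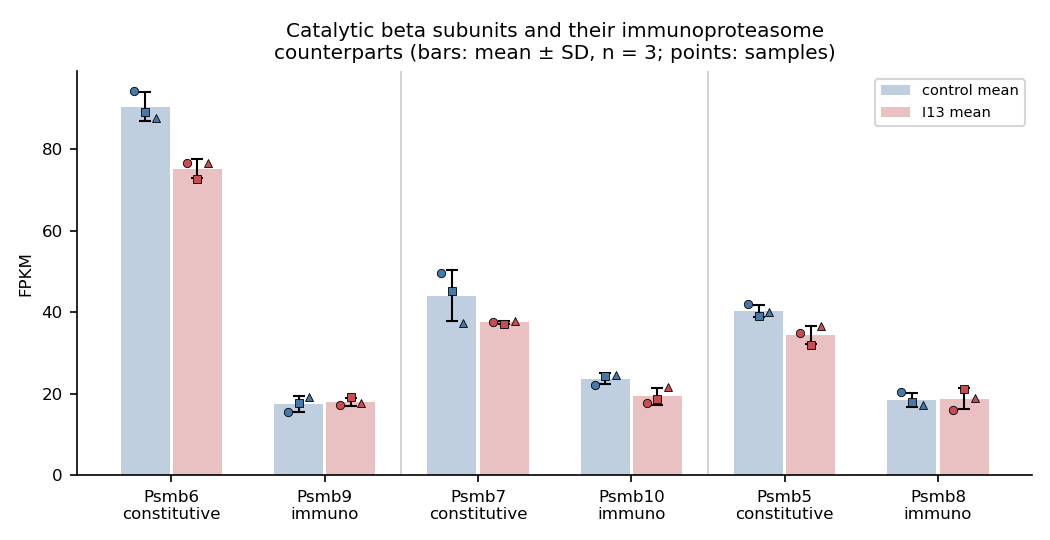
FPKM of the 3 constitutive catalytic subunits and of the immunoproteasome subunit that replaces each, with bars for the mean, error bars for the SD of 3 samples and points for the samples. Psmb6 and Psmb5 are lower in every I13 sample than in any control, Psmb8 and Psmb9 overlap between groups, and Psmb10 at 17.7 to 21.7 FPKM after I13 lies below its controls at 22.1 to 24.5 FPKM.

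Genes that build, cap and control the complex were taken as lists. None of their genes was called, and their counts at an unadjusted p below 0.05 stand beside the 10.8% lower and 7.79% higher of all genes tested. Of the 5 genes of 20S assembly chaperones, all had a log2 fold change below 0 and 1 had an unadjusted p below 0.05, Psmg1, which helps the alpha ring to form, with 38.9 ± 3.08 FPKM in controls against 30.9 ± 4.22 FPKM with I13 (SD, n = 3 each, log2 fold change -0.34, adjusted p = 0.216 from limma). Pomp, which assembles the beta ring on the alpha ring, was at 18.6, 19.4 and 17.1 FPKM and at 18.02, 16.3 and 15.9 FPKM (log2 fold change -0.13, adjusted p = 0.492 from limma). Of the 5 caps and inhibitors of the core, 4 were below 0 and 1 above. Psme1 and Psme2, which form the interferon-inducible cap, were at 40.4 ± 5.62 and 29.0 ± 4.44 FPKM (SD, n = 3 each) in the control and at 33.5 ± 1.70 and 26.1 ± 3.33 FPKM (SD, n = 3 each) after I13, with log2 fold changes of -0.26 and -0.15 and overlapping groups. The values of Psme2 may share fragments with its near copy Psme2b. Psme4, the nuclear cap protein, was the 1 higher gene, at 18.1, 21.6 and 18.1 FPKM and at 27.4, 28.6 and 23.6 FPKM (log2 fold change 0.46, standard error 0.12, adjusted p = 0.127 from limma).

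Nfe2l1 was at 31.5, 25.4 and 27.8 FPKM in the control and at 20.5, 23.6 and 30.9 FPKM after I13. The groups overlapped, with the sample of replicate 3 as high after I13 as the controls (log2 fold change -0.19, adjusted p = 0.567 from limma). Without I13 replicate 1 the value for Nfe2l1 was -0.06, and without I13 replicate 3 it was -0.35. Of the 7 genes listed for transcriptional control of the proteasome, 2 were below and 5 above 0, with 1 in each direction at an unadjusted p below 0.05. Psmg1 and Psme4 were chosen for naming after their values had been seen.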

How the data were processed

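mRNA of 6 samples was sequenced from TruSeq stranded libraries. The authors deposited FPKM values, 1 column per sample without pooling. The submitters' processing notes name Trimmomatic, HISAT2, Cufflinks and HTSeq without versions or roles and the build hg38, although the gene identifiers are mouse, and the annotation is not given in the sources used here. The labels matched each of the 6 columns to a sample, leaving 0 unmatched. The reference at hand was human, so no sequences or coordinates are given.

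Fragment numbers were recovered by searching for the whole length and whole fragments that give all 6 FPKM values of a gene within 0.0005 fragments, which succeeded for 22412 genes. Both this step and the fits were first tested on simulated data.

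Fold changes were fitted on log2(FPKM + 0.1) by limma 3.58.1 (R 4.3.3; trended eBayes) over 12163 genes averaging 0.5 FPKM or more, with Benjamini-Hochberg adjustment of the two-sided p-values over all of them. Calls needed an adjusted p under 0.05 and a log2 fold change of 0.58 or more in size, the thresholds in the study's methods, which name no test. Across genes, deviations of same-numbered samples from their group means correlated with r = 0.15, 0.30 and 0.22 (replicates 1, 2 and 3). Differently numbered samples gave r = -0.26 to 0.05. Deviations from a group mean cancel within the group, so these lower values follow from the positive same-numbered ones and are no separate support. The numbers, which come from the labels, were taken to pair the samples on the same-numbered values alone, although no label says what a number shares. A blocked fit was run as an alternative. Intervals have a level of 95%.

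Members and lists were chosen with earlier results of these data known. Values by sample are given for the 2 largest negative log2 fold changes in each part of 5 or more genes. Up to 2 of the largest positive ones were added where a part had any. Values by sample are also given for the most and least abundant members, the catalytic subunits, Psmd14, the chaperones, and Nfe2l1, Psmb8, Psmb9, Psmb10 and Pomp. Psme1 and Psme2 are given as means with SD. Other pseudocounts, filters, scalings, eBayes settings, voom on recovered fragments, the block and leaving out each sample were alternatives. The correction for gene length (loess, span 0.5) and the blocked fits without a pair were added after seeing the data, as were the summed ratios. Plots were made in Python 3.11.15 (matplotlib 3.10.9).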

Additional observations from a re-analysis of the deposited data

How the results depend on the processing

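The median log2 fold change of the members (-0.16 to -0.07) and that of the beta genes (-0.30 to -0.16) stayed below 0 under every alternative run, 25 to 29 members were below 0, and no member was called in any of them. The number of members at an unadjusted p below 0.05 with I13 lower, 8 in the main comparison, was 5 with the values rescaled to TPM, 4 with eBayes without a trend, and 2 to 12 when 1 sample was left out. It was 2 in the blocked fit without replicate 2. Over all genes tested, 4 genes were elevated and 1 was decreased. These counts were 2 and 0 under quantile normalization, median-ratio scaling or a pseudocount of 0.01. The decreased genes were 3 when no filter was set, and also 3 when eBayes had no trend. Both were 0 when any 1 sample was left out, in fits that have fewer samples. With the replicate block 166 were elevated and 64 decreased, 1 member had an adjusted p below 0.05 and 1 member was higher at an unadjusted p below 0.05. With the block and a length correction the genes were 165 and 77. With the block and voom they were 375 and 128, 2 members had an adjusted p below 0.05, and 1 gene of the pathway lists, Uba6, was called. In the blocked fit without replicate 1 there were 78 elevated and 5 decreased genes and 1 higher member, and without replicate 2 or 3 these gene counts were 0. The block changed no other call.

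Some single genes changed sign, among them Psmb8, Psmb9 and Nfe2l1, which are not members. Psma6 was 0.011 with TPM and 0.0025 with quantile normalization, and Psmd4 was 0.0088 with TPM. With a length correction, blocked or not, Psma1 was -0.0070 and Psmb8 was -0.0009. In the blocked fit without replicate 1, Psma1 was -0.087, Psmb9 -0.0045 and Nfe2l1 0.024. Without replicate 2, Psma3 was 0.042, Psma6 0.034 and Psmb8 -0.10. Without replicate 3, Psmd14 was -0.0099 and Psmb8 -0.061. When 1 sample was left out, the ranges were -0.060 to 0.12 for Psma1, -0.14 to 0.086 for Psma3, -0.092 to 0.026 for Psma6, -0.058 to 0.16 for Psmc6, -0.047 to 0.056 for Psmd14, -0.040 to 0.0028 for Psmd4, -0.084 to 0.12 for Psmb8 and -0.036 to 0.12 for Psmb9. The cause was not tested.

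Psmb11, with 0 to 4 fragments in a sample, was too shallow to compare. The share of counting error in the errors of the other members was not tested.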

Other observations

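Genes that work beside the proteasome were described from 4 further lists, and those named here were chosen after their values had been seen. Of the 6 proteasome-associated genes found, 1 was below and 5 above 0. Uchl5, a deubiquitinase bound to the regulatory particle, was at 23.1, 28.6 and 24.7 FPKM in the control and at 39.0, 38.5 and 36.2 FPKM after I13, well apart. Its log2 fold change of 0.577 (standard error 0.10) was just under the threshold of 0.58 and had an adjusted p of 0.0989 from limma, and it rose with an adjusted p of 0.0447 from limma in the blocked fit. Adrm1, the receptor that holds Uchl5 on the complex, was at 26.2 ± 2.75 FPKM in controls against 26.7 ± 0.983 FPKM with I13 (SD, n = 3 each), with its log2 fold change at 0.03. Akirin2, which brings proteasomes into the nucleus, was at 27.96, 24.4 and 25.2 FPKM and at 20.4, 16.8 and 20.5 FPKM, also apart (log2 fold change -0.43, adjusted p = 0.134 from limma).

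Of the 6 genes for ubiquitin and its activating enzymes, 3 were below and 3 above 0. Uba1, the main activating enzyme, was at 156 ± 12.98 FPKM in controls against 139 ± 2.26 FPKM with I13 (SD, n = 3 each), with its log2 fold change at -0.16. Uba6, the alternative activating enzyme, was at 3.58, 4.51 and 4.39 FPKM and at 6.64, 6.81 and 5.43 FPKM (log2 fold change 0.59, standard error 0.14, adjusted p = 0.120 from limma). Uba6 was called when the fit was blocked by replicate number and run by voom on fragments (log2 fold change 0.60, adjusted p = 0.0159 from limma), and its adjusted p was 0.0734 from limma in the blocked fit on FPKM. The activating enzymes thus had values of opposite sign, without overlap of the groups in either gene, though Uba1 had an adjusted p of 0.364 from limma. Groups without overlap were found with I13 lower for 15.4% of all genes tested and 23.0% of the abundant ones. With I13 higher they were found for 9.82% and 7.97%. Of the 42 list genes tested, 9 were without overlap with I13 lower and 5 with I13 higher. Of the 6 shuttle factors that carry ubiquitinated proteins 2 were below 0 and 4 above, and of the 5 genes of p97 and its cofactors 4 were below 0 and 1 above. Over all lists, 42 genes were tested, 7 of them lower and 4 higher at an unadjusted p below 0.05, against 10.8% and 7.79% of all genes tested, and none was called without the block.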
